A study of Bos taurus with 16 samples.

Results

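Maternal recognition of pregnancy is the short window in which a ruminant conceptus signals its presence and the corpus luteum is kept. These results describe which genes of the bovine corpus luteum were higher or lower around that window than in the other groups sampled. The 4 arrays of pregnancy days 20-25, of 16 in all, were set against the mean of the other 3 groups, each weighted equally. Days between the ranges of the groups were not sampled. All glands came from Japanese Black cows, with 4 separate animals per group and 1 array per animal. The 3 comparison groups were cycling, non-pregnant animals (days 10-12, called cyclic below) and animals further into pregnancy (days 40-45 and 150-160), with insemination counted as day 1. No agent or genetic change was applied to any group, and the ages of the cows are not given in the sources used here.

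The corpus luteum forms from the ovulated follicle and secretes progesterone, which the uterus needs to carry a pregnancy. In a cow without a conceptus, oxytocin from the gland and prostaglandin from the uterus together end the gland's life. The trophoblast of the conceptus secretes interferon tau, a type I interferon, which acts on the uterus and is known to raise interferon-stimulated genes also in blood cells and in the corpus luteum. These genes, such as ISG15, MX1 and OAS1, are switched on through the receptor chains IFNAR1 and IFNAR2 and a transcription factor complex that holds IRF9, and many encode antiviral proteins.

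Levels are log2 of the scanner's processed signal relative to the 75th percentile of the same array, so a difference of 1 is a 2-fold difference. They are compared for a given probe between arrays and not between probes. Testing was limited to probes that the scanner marked as well above background on 3 or more arrays in some group, 11943 of 15208, and 6136 of these have a gene symbol. Between 71.9% and 79.6% of probes were well above background on an array, and 75th percentiles of the processed signal lay between 2020.5 and 4288.4. Of the genes of the steroid-making cell that were checked, 4 were bright on every array. The lowest level was 6.87 for STAR, the cholesterol carrier, and 6.08 for CYP11A1, which starts steroid synthesis. It was 6.60 for HSD3B1, which makes progesterone, and 3.40 for PTGFR, the receptor of the luteolytic prostaglandin. The days 20-25 differences of these 4 were 0.07, -0.15, -0.35 and -0.41, and none passed. LHCGR, the receptor of luteinizing hormone, was not bright and read -3.14 to -0.31 over the 16 arrays. It differed by -0.83 (adjusted p = 0.373 in limma), and by -0.58 without replicate 4 of days 20-25, where its probe lies in the dim oval described next. OXT, also checked, is described further on. Each of the 2 slides held 2 arrays of every group, at the same positions, so position on a slide and group cannot be told apart.

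Replicate 4 of days 20-25 stood apart, and its departure had a shape on the array. For each spot the median departure of replicate 4 from the mean of replicates 1 to 3 was taken over a window of 9 by 9 spots. In an oval between rows 61 and 141 and columns 28 and 56 of the grid of 192 rows and 82 columns this local median was under -0.5, and it reached -4.76. The oval held 1353 tested probes, 11.3% of all. Inside it the median departure was -1.31 and outside it 0.18. Of the 142 probes that lay over 3 log2 units under the mean of replicates 1 to 3, 133 were in the oval, and 832 of the 952 that lay over 1 unit under were there too. No other array had more than 1 tested probe with a local median under -0.5. The scanner's outlier flags marked 1 of the spots of replicate 4 there.

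As one correction, the local median of each array's departure from the probe's median over the 16 arrays was subtracted on every array, which also takes away any difference that a neighbourhood of probes shares. Its mean correlation with replicates 1 to 3 over probes was 0.962 before and 0.983 after, against 0.985 to 0.987 for the other 3 arrays after the subtraction. Before it, replicate 4 was the highest or the lowest of its group for 70.2% of probes, and after it for 56.3%, next to 56.1% for replicate 3. This correction, and setting the spots of the oval missing, were chosen after the data were seen.

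**Figure D1:**
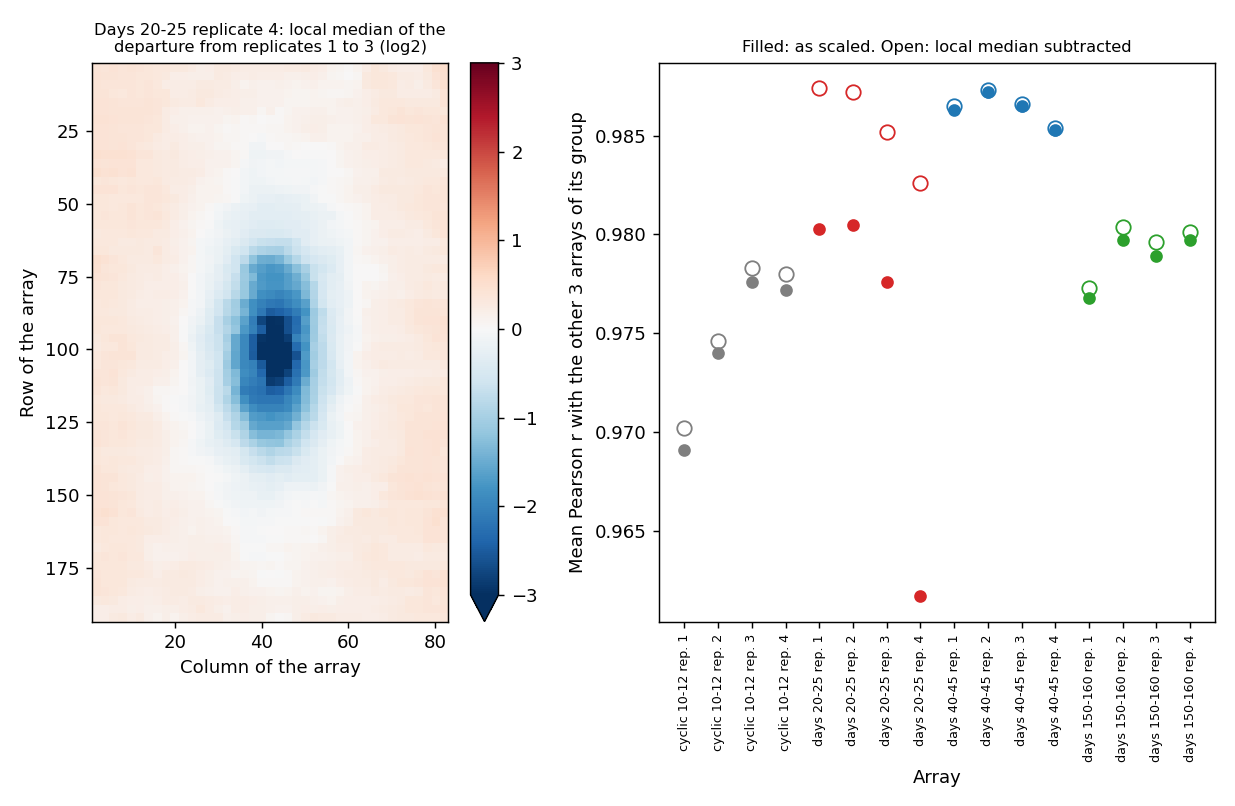
Left, the 192 rows and 82 columns of the array of days 20-25 replicate 4, coloured by the local median departure from replicates 1 to 3 on the log2 scale; the blue oval in the middle reaches -4.76, beyond the end of the colour scale. Right, the mean Pearson correlation of each array with the other 3 of its group over probes, as scaled (filled) and with the local median subtracted (open); replicate 4 moves from 0.962 to 0.983.

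Against the mean of the other 3 groups, limma called 9 of 11943 probes (0.0754%) at an adjusted p under 0.05, 6 higher (0.0502%) and 3 lower (0.0251%), and with quantile normalization 5 higher and 4 lower. Of these, 4 have a gene symbol: FNDC5, OXT, CLDN10 and DAPL1. At an unadjusted p under 0.05 the counts were 1047 higher (8.77%) and 426 lower (3.57%), 12.3% of probes in all, and 58.9% of all probes had a difference above 0. A gene raised or lowered only on days 20-25 must differ from every other group in the same direction, and the test for that used the highest of its 3 pairwise p-values. By that test limma called 0 probes (0%), with a smallest adjusted p of 0.1625, while 129 probes (1.08%) had an unadjusted p under 0.05, 113 above (0.946%) and 16 below (0.134%) every other group. With the local median subtracted, the unadjusted counts were 771 higher and 679 lower against the mean and 67 above and 49 below each group. That subtraction centres the differences by its construction (the median over probes went from 0.048 to 0.0026), so its more even split says nothing about position. In the oval lay 30.1% of the 426 lower probes and 1.81% of the 1047 higher ones.

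Without replicate 4, limma called 2 probes (0.0167%) against the mean, OXT and FNDC5, each at an adjusted p of 0.05 after rounding and just under the threshold. It called 0 against each group (smallest adjusted p = 0.5317), with 51 above (0.427%) and 15 below (0.126%) at an unadjusted p under 0.05. At an unadjusted p under 0.05 against the mean there were 899 probes (7.53%), 592 higher (4.96%) and 307 lower (2.57%). Of the 1473 with all arrays, 678 kept that and their sign. The 3 remaining arrays were above all 12 others for 47 probes (0.394%) and below them for 17 (0.142%), against 32 and 3 with all 4 arrays. The count of 9 also moved by over 1.5 times without other arrays. It was 32 without cyclic replicate 1, 30 without days 150-160 replicate 1 and 14 without cyclic replicate 3 or days 150-160 replicate 3. It was 5 without cyclic replicate 4 or days 40-45 replicate 1 or 3, 4 without days 20-25 replicate 2 and 3 without days 20-25 replicate 3. Within slide 1 and within slide 2 it was 0, with 567 and 1357 probes at an unadjusted p under 0.05.

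A probe was called against the mean for 2 kinds of pattern. For FNDC5 and the unnamed probes ABR4875, ABR6537 and ABR4555 the days 20-25 level was above that of each other group, and for ABR7215 it was below each. For OXT, DAPL1, CLDN10 and ABR8800 it was close to that of a neighbouring group and far from the rest. Apart from OXT, these probes fall outside the naming rule and are named because they were called. The 5 unnamed probes carry no gene symbol, so their sequences are what identifies them. The first 30 of 60 bases of each probe of the first kind are shown, 5′ to 3′ as in the scanner files, with no part marked by capitals. None of these probes was called against each other group with all arrays as scaled.
FNDC5: aaggctccttagggcagaggtccttacctc
ABR4875: agcagccctttcccactctgatgagtgtct
ABR6537: tttgttcattcgggaagctcttctgaggca
ABR4555: cctgcctcatatacccttaaagaatatcat
ABR7215: cctcgtgtactcctgtaccacaatcatctg
The whole probes of FNDC5, ABR4875 and ABR7215 share no run of 16 bases, on either strand, with any other probe of the array, and those of ABR6537 and ABR4555 share a run of 16 with 1 other probe each.

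FNDC5, the precursor of the secreted peptide irisin, differed from the 3 other groups by nearly the same amount. The file names it by similarity to the human gene. Its days 20-25 arrays read -3.59, -3.46, -2.96 and -2.33. The cyclic arrays read -4.38, -4.43, -3.94 and -4.00, those of days 40-45 -4.37, -4.71, -3.57 and -3.86, and those of days 150-160 -4.77, -4.69, -3.64 and -3.71. Over all arrays the groups overlapped, since replicate 3 of days 40-45 lay just above replicate 1 of days 20-25. Within each slide both days 20-25 arrays were above all 6 others. The difference from the mean was 1.09 (SE 0.13, adjusted p = 0.00616 in limma, n = 4 against 12), or 1.10, 1.04 and 1.12 above cyclic cows, days 40-45 and days 150-160. Replicate 4 was the highest array, and without it the difference was 0.96. Slide as a block mattered here: without it the adjusted p was 0.200, and with slide as a random block 0.115. With the local median subtracted, FNDC5 was the 1 probe called against each of the 3 groups (difference 0.98, adjusted p = 0.0487). Without replicate 4 that call was lost, with a smallest adjusted p of 0.2375.

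ABR4875 was the called probe whose 4 arrays did not overlap with the other 12. It read -4.32, -4.63, -4.59 and -4.28 on days 20-25, and between -6.01 and -5.05 on the other arrays. The difference from the mean was 1.09 (SE 0.14, adjusted p = 0.00966 in limma), with 1.10, 1.07 and 1.11 against the groups in turn. It did not pass without replicate 4 (adjusted p = 0.079) or without replicate 3 (adjusted p = 0.0536). ABR6537 and ABR4555 overlapped with other groups over all arrays, but within each slide their days 20-25 arrays were also above all 6 others. ABR6537 differed by 0.84 (SE 0.13, adjusted p = 0.0318). It was well above background on all 4 days 20-25 arrays, 3 arrays of days 40-45 and 2 each of the other groups, and with normexp background correction the difference was 0.30 (adjusted p = 0.356). ABR4555 was well above background on 3 days 20-25 arrays, 1 array of days 40-45 and none of the other groups. It was therefore tested only through days 20-25, the group in which it is high, and its fold is a bound. The bound sets the bright mean against a dim mean in which each array counts at least its lowest signal well above background. ABR4555 was at least 1.63-fold above cyclic cows and at least 1.17-fold above days 150-160 (adjusted p against the mean 0.0356 in limma). ABR7215, which lies in the oval of replicate 4, read 1.14, -0.07, 1.67 and -0.17 on days 20-25. The cyclic arrays lay between 1.37 and 2.05, and those of the later stages between 2.45 and 4.07. Replicate 3 overlapped with the cyclic cows. The difference from the mean was -2.07 (SE 0.29, adjusted p = 0.0166) and from cyclic cows -1.03. Both of these include the dim spot of replicate 4. With the local median subtracted, replicate 4 of ABR7215 read 1.645. Replicates 3 and 4 then both overlapped with the cyclic cows, and replicates 1 and 2 lay below them. The difference from cyclic cows shrank to -0.63, and that from the mean was -1.65 (adjusted p = 0.0328 in limma). As scaled, ABR7215 did not pass without replicate 4 (difference -1.74, adjusted p = 0.079) or replicate 2 (adjusted p = 0.103). ABR6537 and ABR4555 did not pass without any 1 of the days 20-25 arrays, with adjusted p-values of 0.077 to 0.151 for ABR6537 and 0.129 to 0.150 for ABR4555. Both also missed the threshold without cyclic replicate 4, days 40-45 replicate 3 or days 150-160 replicate 4, ABR6537 without days 40-45 replicate 4 as well, and ABR4555 without days 40-45 replicate 1 or days 150-160 replicate 2.

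The other called probes show a stage of the gland that days 20-25 shared with a neighbour. OXT, which encodes oxytocin, a hormone of the cyclic corpus luteum, read 5.03, 5.35, 4.40 and 5.32 on days 20-25 and 5.04 to 6.48 in cyclic cows. It was at 0.79 to 2.36 on days 40-45 and at -3.03 to -0.77 on days 150-160. The 3.23 above the mean (SE 0.37, adjusted p = 0.00616) came with a difference of -0.77 from cyclic cows, so OXT was not peculiar to days 20-25. DAPL1, an epithelial differentiation protein, and CLDN10, a tight junction claudin, were likewise low in cyclic cows and on days 20-25 and higher later. DAPL1 was well above background on 1 cyclic and 1 days 20-25 array and on all 8 later ones, so its low level is poorly measured. As read, its difference from the mean was -2.07 (adjusted p = 0.0422), and with dim values raised to background it was -1.41 (adjusted p = 0.1004), with normexp background correction -0.82 (adjusted p = 0.267). CLDN10, whose probe lies in the oval, rose above background on none of the cyclic and days 20-25 arrays, and days 150-160 were at least 7.72-fold above days 20-25; its call against the mean (adjusted p = 0.0318) was lost with the spots of the oval set missing (adjusted p = 0.0677). The calls of DAPL1 and CLDN10 were lost without any 1 of the days 20-25 arrays, cyclic replicate 4 or days 40-45 replicate 1, with adjusted p-values of 0.0685 to 0.167 and 0.056 to 0.148. That of DAPL1 was also lost without cyclic replicate 3, days 40-45 replicate 3 or 4, or days 150-160 replicate 2 or 4. ABR8800 was at -2.72 to 0.33 in cyclic cows and at 3.72 to 6.12 on every pregnant array, so that it set pregnancy apart and not days 20-25. Its call (difference 2.85, adjusted p = 0.0318) was lost without days 20-25 replicate 2, 3 or 4, cyclic replicate 4, or days 40-45 replicate 1 or 3 (adjusted p = 0.056 to 0.150).

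**Figure D2:**
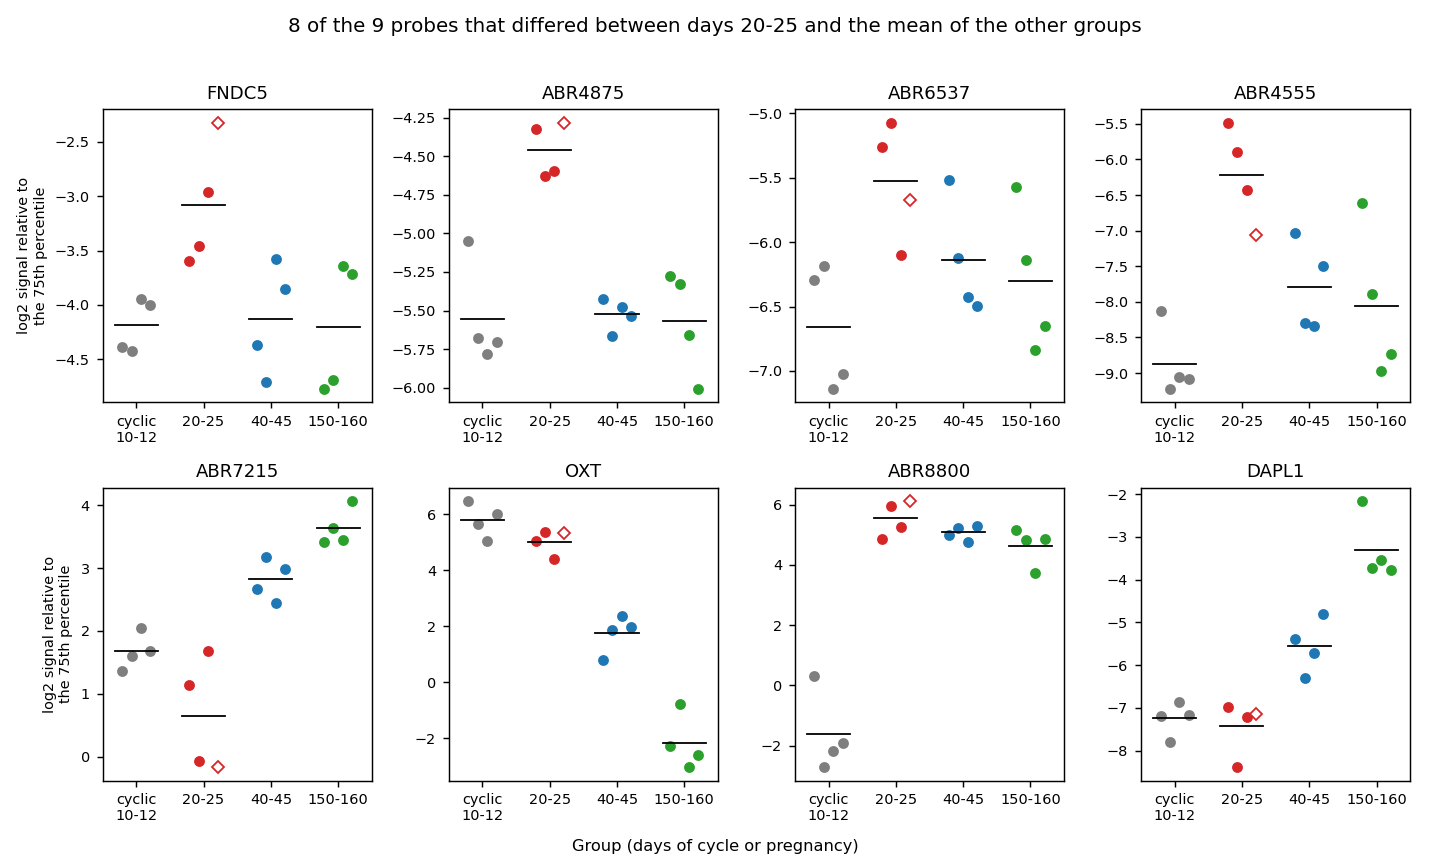
Level of 8 of the 9 called probes on each of the 16 arrays (log2 signal relative to the 75th percentile of the array; horizontal axis, group by days of the cycle or pregnancy). Points are cows in order of replicate, bars are group means, and the open diamond is days 20-25 replicate 4. FNDC5, ABR4875, ABR6537 and ABR4555 peak on days 20-25. ABR7215 dips there as scaled, with its spot on replicate 4 in the dim oval. OXT and DAPL1 sit with cyclic cows and ABR8800 with the later stages.

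Of the gene lists tested, interferon-stimulated genes had the highest median difference. Of 28 list members on the array 27 were tested, and none was called against the mean or against each group. At an unadjusted p under 0.05, 17 were higher and 0 lower than the mean of the other groups, where 8.77% of all probes were higher. The median difference was 0.75, against 0.05 over all probes. It was 0.69 above cyclic cows, 0.78 above days 40-45 and 0.65 above days 150-160, and 0.70 within slide 1 and 0.62 within slide 2. Above each of the 3 groups at an unadjusted p under 0.05 stood 16 of the 27, against 0.946% of all probes. All 4 arrays were above all 12 others for 10 of the 27, against 0.268% of all probes (32). Those 10 were also 10 of the 19 such probes with a symbol. Among them LGALS9 met the background rule for testing only through days 20-25, so that rule favoured its place in the count. On both slides 15 of the 27 were above every other array of the slide, where 0.486% of all probes (58, of them 33 with a symbol) were.

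The pattern kept its direction without replicate 4 and with the correction for position. Without replicate 4 the median was 0.69 and 20 of 27 were higher at an unadjusted p under 0.05, where 4.96% of all probes were. With the local median subtracted these were 0.67 and 19, where 6.46% of all probes were higher. All 4 arrays were then above all 12 others for 9 of the 27, against 0.193% of all probes (23). With array weights, which gave 238 calls over all probes, each of the 8 members with the smallest p passed (adjusted p = 0.0114 to 0.0333). Of these 8, IFITM3, MX2, ISG15 and IFITM1 passed without cyclic replicate 1, IFITM3, DHX58, EIF2AK2 and ISG15 without cyclic replicate 3, IFITM3, LGALS9, MX2 and DHX58 without days 150-160 replicate 1, and LGALS9 without days 150-160 replicate 3 (adjusted p = 0.019 to 0.0499). Over 36 alternatives the median lay between 0.38 and 0.80. Per array, the mean over the 27 genes of the deviation from the mean of the group means was 0.58, 0.54 and 0.59 for replicates 1 to 3 of days 20-25 and 0.31 for replicate 4. Cyclic replicate 3 also stood at 0.31, cyclic replicate 4 at 0.18, and the remaining arrays between -0.59 and 0.12. Fewer cells of a type and less RNA per cell cannot be told apart in whole glands.

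The members fall by role into effectors that act on RNA or virus entry, the ISG15 system, RNA sensors and regulators. Among the effectors, OAS1X, an oligoadenylate synthase that activates RNA decay, had the largest difference. It read -1.53, -1.21, -1.10 and -1.30 on days 20-25, and between -5.81 and -1.92 on the others. It was 2.58 above the mean (SE 0.63, adjusted p = 0.141), with 2.09, 2.55 and 3.10 against the groups in turn. RSAD2, the antiviral enzyme viperin, lay between -3.81 and -3.53 on days 20-25, above all others (-5.11 to -3.96), and was 0.92 higher (SE 0.21, adjusted p = 0.114). The MX dynamin-like GTPases were both higher. MX2 differed by 0.82 (SE 0.15, adjusted p = 0.0751 in limma), with -5.63, -5.55, -5.32 and -5.02 on days 20-25 and nothing above -5.78 elsewhere. Over all processing settings the difference of MX2 lay between 0.33 and 1.09. MX1 differed by 0.91 (SE 0.28, adjusted p = 0.244 in limma). For MX1 the groups overlapped, because cyclic replicate 3 read 3.22, days 40-45 replicate 1 read 2.74 and days 20-25 read 2.65 to 3.47.

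IFITM3 and IFITM1 encode membrane proteins that block virus entry and are close relatives, so their probes are compared (first 30 of 60 bases).
IFITM3: ctttccccgcagcctatccaggcacctgcc
IFITM1: tccccccagccaataaggcaagcagtttat
The longest run the whole probes share is 5 bases. Neither probe was compared with the transcript of the other gene, so whether each reads only its own gene was not tested. IFITM3 read 4.62, 4.35, 4.83 and 5.18 on days 20-25, above the 3.19 to 4.16 of all other arrays. It differed by 1.06 (SE 0.19, adjusted p = 0.0751), with 1.12, 1.04 and 1.01 against the groups in turn. IFITM1 read -0.47, -0.62, -1.65 and -1.44 and overlapped with other groups over all arrays, but not within a slide (difference 1.09, SE 0.23, adjusted p = 0.111).

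ISG15, a ubiquitin-like protein joined to other proteins, and USP18, the protease that removes it, were both higher. ISG15 read 2.897, 2.76, 3.20 and 2.99 on days 20-25. It was at 0.48 to 1.58 on days 40-45 and at 0.34 to 1.42 on days 150-160, below every days 20-25 array. The cyclic cows were spread from 0.25 to 2.898, and the highest of them, replicate 3, overlapped. Its difference from the mean was 1.84 (SE 0.37, adjusted p = 0.101), with 1.38 over cyclic cows and 1.997 and 2.15 over the later stages. USP18 lay between -0.71 and -0.34 on days 20-25 and at -1.03 or lower on all other arrays (difference 1.15, SE 0.26, adjusted p = 0.111). UBA7, the enzyme that activates ISG15, lies in the oval of replicate 4: its difference was 0.21 with all arrays and 0.41 without that one (unadjusted p = 0.269 and 0.0326).

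Sensors and regulators showed the same order. DHX58, an RNA-binding regulator of RNA sensors, read -1.23, -1.29, -1.38 and -1.27 on days 20-25 and -3.02 to -1.72 elsewhere (difference 1.11, SE 0.21, adjusted p = 0.0863). EIF2AK2, the RNA-activated kinase PKR, lay between -3.58 and -3.39, above the -3.62 of the highest other array, a day 40-45 cow. It was 0.52 higher than the mean (SE 0.10, adjusted p = 0.101 in limma) but only 0.29 higher than days 40-45. With the local median subtracted the arrays of EIF2AK2 overlapped, with days 20-25 replicate 4 at -3.78 and days 40-45 replicate 1 at -3.56. LGALS9, a galectin of immune regulation, was 1.13 higher (SE 0.21, adjusted p = 0.0751). It was dim, and well above background on all 4 days 20-25 arrays and on 2 arrays each of cyclic cows and days 40-45. On days 150-160 it was so on none, and the bound there is at least 1.505-fold. LGALS9 was thus tested only through days 20-25. Over all processing settings its difference lay between 0.32 and 1.43. XAF1, a proapoptotic factor, and TRIM21, a ubiquitin ligase, also had all 4 arrays above the other 12, with differences of 0.82 and 0.44. PARP9, PARP12 and SP110 were 0.66, 0.75 and 0.49 higher and above every other array of their slide on both slides.

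Members not seen with this pattern include some whose reading rests on replicate 4. OAS2, IFIT3, UBA7 and PML, 4 of the 27, have their probes in the oval. OAS2 read -6.07, -5.87, -5.98 and, on replicate 4, -8.54. Its difference was 0.86 with all arrays (unadjusted p = 0.104) and 1.46 without replicate 4 (unadjusted p = 0.00707). IFIT3 read -5.13, -5.42, -4.71 and, on replicate 4, -7.96, and its difference went from -0.09 to 0.75. PML, a nuclear body protein, went from -0.05 to 0.23. Over the 23 members outside the oval the median difference was 0.82. Other members outside the oval differed little from the mean of the other groups. The difference was -0.03 for PSMB9, an immunoproteasome subunit, 0.05 for LGALS3BP and 0.06 for SAMHD1, a nucleotide hydrolase. For PSMB9 and SAMHD1 it averages a level below cyclic cows and above the later stages. PSMB9 averaged 3.425 on days 20-25, against 3.97 in cyclic cows, 3.23 on days 40-45 and 3.17 on days 150-160. SAMHD1 averaged -4.94, against -4.385, -5.26 and -5.34 in the same order. GBP5, a guanylate-binding protein, differed by -1.92 from cyclic cows and by 0.22 and 0.16 from the later stages.

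**Figure D3:**
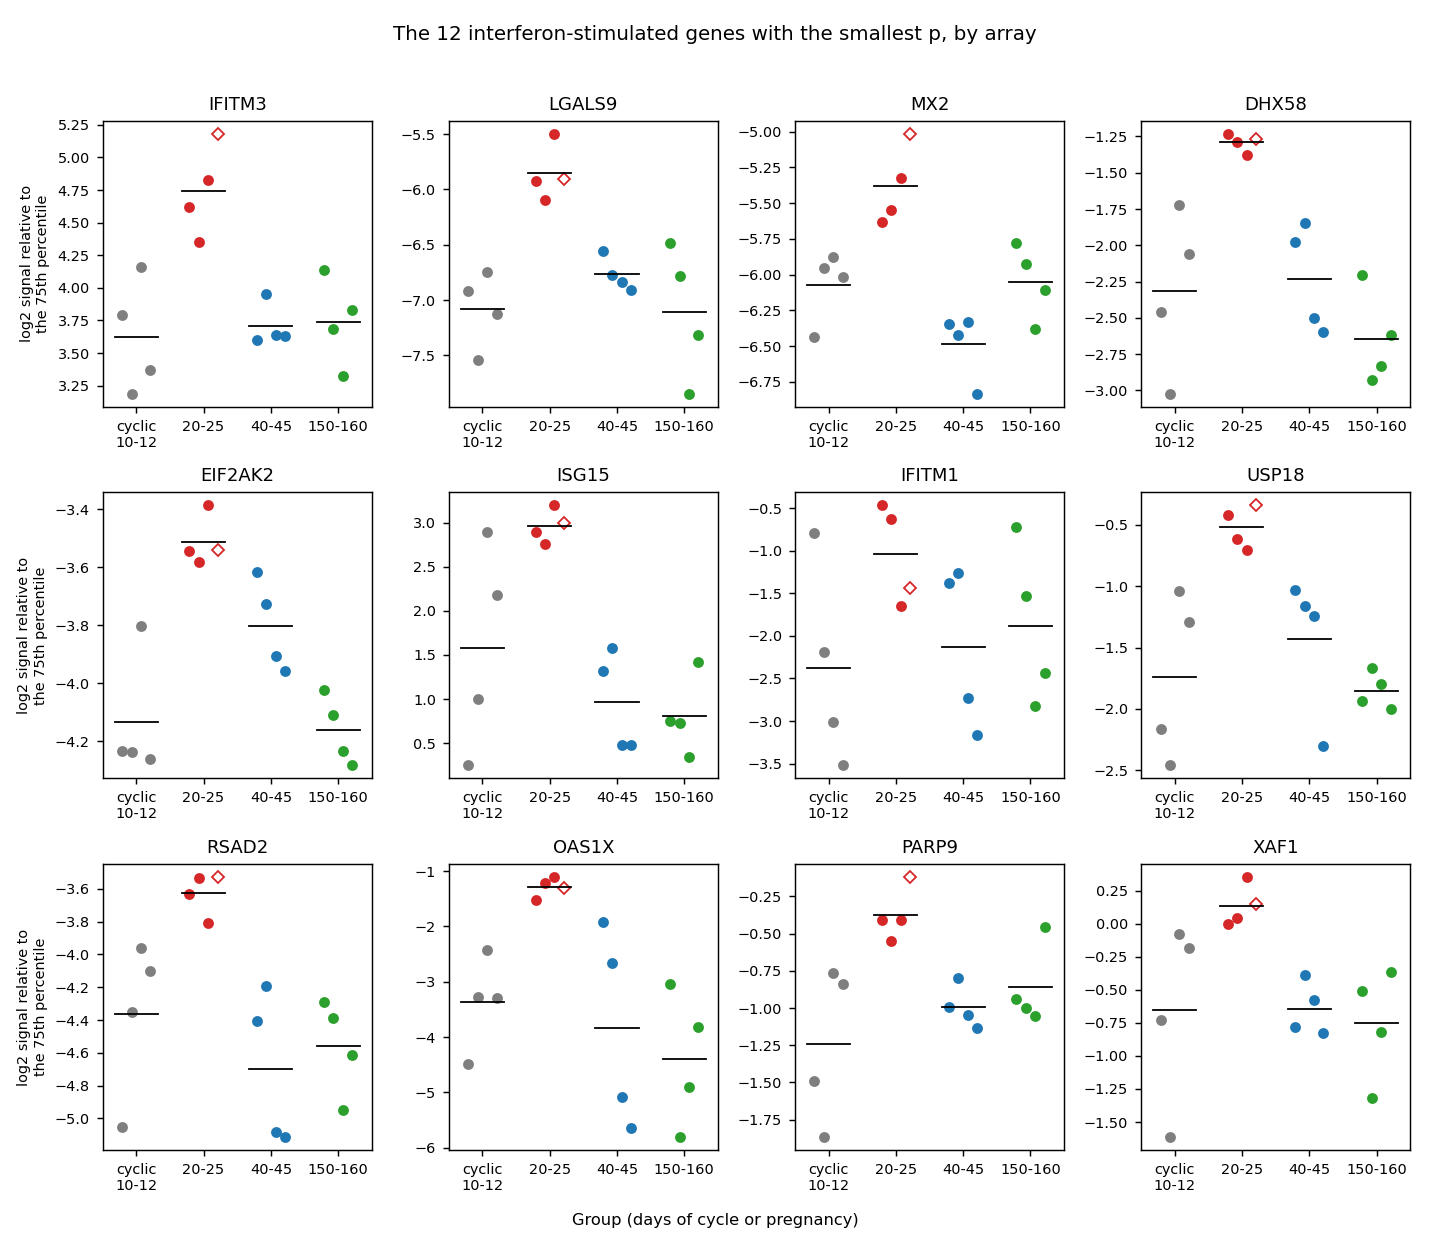
Level of the 12 interferon-stimulated genes with the smallest p against the mean, on each of the 16 arrays (log2 signal relative to the 75th percentile; horizontal axis, group by days of the cycle or pregnancy). Points are cows in order of replicate, bars are group means and the open diamond is days 20-25 replicate 4. The days 20-25 points lie above all others except for ISG15, IFITM1 and PARP9, where the groups overlap.

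**Figure D4:**
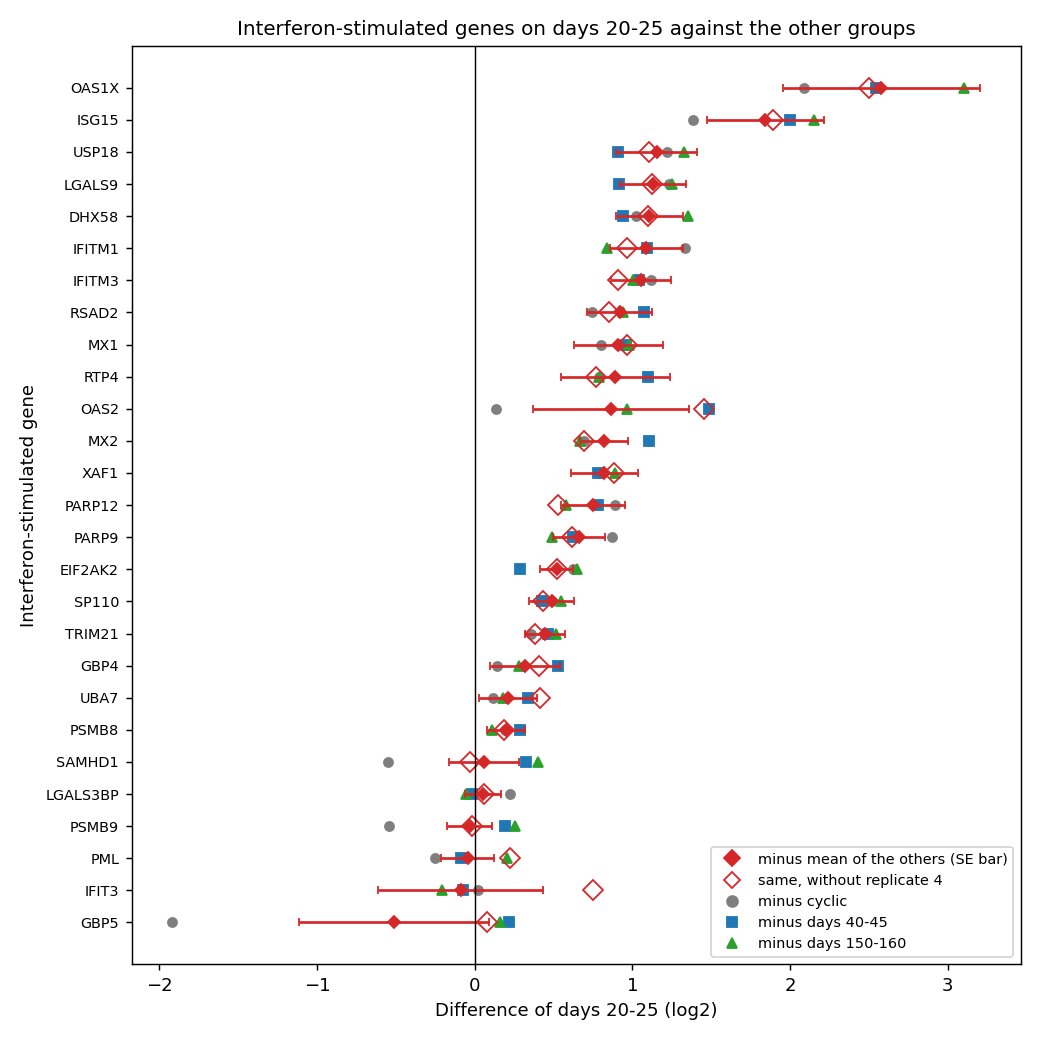
Difference of days 20-25 (log2, horizontal axis) for each of the 27 interferon-stimulated genes tested: against the mean of the other groups with its SE (filled diamond), the same without replicate 4 (open diamond), and against each other group. From OAS1X at 2.58 down to TRIM21, all 3 group differences are above 0, and IFIT3 is the gene that moves most without replicate 4, from -0.09 to 0.75.

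The receptors and transducers upstream of these genes did not show the same shift. Of 15 members on the array 14 were tested and none was called. The median difference was 0.07, and at an unadjusted p under 0.05 IRF9 was higher and STAT3 lower. IRF9, a DNA-binding factor of the interferon response, was 0.55 higher (SE 0.20, adjusted p = 0.326), with 1.88 to 2.13 on days 20-25 and 0.87 to 2.09 on the others, so the groups overlapped. IFNAR1 and IFNAR2, the receptor chains for type I interferon, differed by -0.05 and 0.15. IFNGR1, a chain of the receptor for interferon gamma, differed by -0.53, but its probe lies in the oval, where replicate 4 read -1.41 and the other 3 arrays 0.64 to 1.28. Without replicate 4 the difference was 0.04, and a further probe of the gene gave -0.02. STAT3 differed by -0.82 (SE 0.36, adjusted p = 0.387) with overlapping arrays. SOCS2, a suppressor of cytokine signalling, differed by 1.37 from cyclic cows but by -0.29 and -0.43 from the later stages. The 11 tested genes of antigen presentation on MHC class I, several of which interferon gamma raises, had a median of 0.02 and no member at an unadjusted p under 0.05.

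Among named genes whose arrays did not overlap, KLRB1 had the smallest p. It encodes an inhibitory receptor of natural killer and T cells and read -5.11, -4.97, -5.00 and -5.11 on days 20-25. The highest other array, cyclic replicate 4, was at -5.14, so the gap was narrow, and days 150-160 lay at -7.37 to -6.33. With the local median subtracted the arrays overlapped, with days 20-25 replicate 4 at -5.29 and cyclic replicate 4 at -5.17. The difference was 1.37 (SE 0.23, adjusted p = 0.0542), with 0.92, 1.23 and 1.95 against the groups in turn, and 1.40 without replicate 4. Of the days 150-160 arrays 1 was well above background, so the last of these is poorly measured, and with normexp background correction the difference from the mean was 0.60 (adjusted p = 0.128). KLRB1 passed when replicate 1 or 4 of the cyclic cows was left out, or replicate 1 or 2 of days 150-160 (adjusted p = 0.0196 to 0.049), and with dim values raised to background (1.18, adjusted p = 0.0485). KLRK1 and KLRD1, activating and partner receptors of the same cells, were 1.13 and 1.54 higher (unadjusted p = 0.00596 and 0.00884 in limma). Both overlapped with cyclic cows: the lowest days 20-25 array read -4.43 for KLRK1 and -5.66 for KLRD1. The highest cyclic array read -4.14 and -4.67. KLRK1 also overlapped with the later stages, where days 40-45 replicate 4 read -4.38 and days 150-160 replicate 1 read -3.96. The list of 16 T and natural killer cell markers as a whole had a median of 0.16, with these 3 higher and 0 lower at an unadjusted p under 0.05, where 8.77% of all probes were higher. Without replicate 4 the median was 0.31 and 4 were higher, where 4.96% of all probes were. The probes of CD6, GNLY and NKG7, 3 of the 16, lie in the oval. The T cell genes CD3E, CD3D, CD3G and CD8A differed by 0.14, -0.30, 0.23 and -0.17. Of other members, GZMB differed by -0.49 without replicate 4 and by -1.07 with the local median subtracted, and PRF1 by 0.06 and -0.09. For GNLY these values were 1.22 and 0.94, and for NKG7 0.55 and 0.41. The summed signal of the 16 markers overlapped between groups, at 1.46 to 3.33 times the 75th percentile on days 20-25 and 0.96 to 3.28 on the others. Whether these cells have a part in the interferon pattern was not tested.

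ATP6V1B2, a subunit of the vacuolar proton pump, and AP1AR, an adaptor of vesicle transport, were also among the 9 genes outside the interferon list whose 4 arrays lay above all others. ATP6V1B2 read 0.17, -0.04, 0.33 and 0.26 on days 20-25 and -1.57 to -0.32 elsewhere. Its difference was 0.86 (SE 0.16, adjusted p = 0.0751). AP1AR was 0.42 higher (SE 0.09, adjusted p = 0.107). In the other direction the 4 arrays lay below all 12 others for 3 probes (0.0251%), of which UBL5 and SEMA3D have a symbol. Without replicate 4 this held for 17 probes (0.142%), 8 of them with a symbol, and with the local median subtracted for 9 (0.0754%). UBL5, a ubiquitin-like protein of RNA splicing, read 2.53, 2.61, 2.63 and 2.59 on days 20-25 and 2.72 to 3.09 elsewhere. The difference was small, -0.28 (SE 0.08, adjusted p = 0.188), as was the spread between cows. SEMA3D, a secreted semaphorin, was 1.19 lower (SE 0.49, adjusted p = 0.373) and well above background on 1 days 20-25 array only. Its gap was narrow, with days 20-25 replicate 4 at -6.47 and days 40-45 replicate 1 at -6.44. Cyclic replicate 1, at -3.12, lay far above the other cyclic cows at -6.35 to -6.04. Over all processing settings the difference of SEMA3D lay between -1.73 and -0.39. None of these 4 genes passed with all arrays. Without cyclic replicate 1 ATP6V1B2 and AP1AR passed (adjusted p = 0.0351 for each), as did ATP6V1B2 without cyclic replicate 3 (adjusted p = 0.0411). With array weights ATP6V1B2, AP1AR and UBL5 passed (adjusted p = 0.0121, 0.0163 and 0.0276).

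Several gene groups had a days 20-25 median away from 0, but differed from one group more than from the others. Fibroblast and matrix genes had a median of 0.43, and 10 of 19 were higher and 0 lower than the mean at an unadjusted p under 0.05, where 8.77% of all probes were higher. The group medians were 0.21 above cyclic cows, 0.35 above days 40-45 and 0.89 above days 150-160, and no member stood above each group at an unadjusted p under 0.05. COL1A2, a chain of type I collagen, was 1.53 above the mean (SE 0.34, adjusted p = 0.111), 0.35 above cyclic cows and 3.07 above days 150-160. Without replicate 4, 5 of 19 were higher, and with the local median subtracted 13, where 4.96% and 6.46% of all probes were higher. Replicate 4 had the highest mean deviation over these genes of all 16 arrays, 1.03, and the other days 20-25 arrays 0.15 to 0.57. Cell cycle genes had a median of 0.46 over 19 genes and stood 0.73 above days 150-160 and 0.49 above days 40-45, but differed by -0.04 from cyclic cows.

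Genes of cholesterol synthesis and uptake, which feed progesterone synthesis, had a median of -0.43 over 12 genes. The medians against the groups were -0.34, -0.32 and -0.53 in the order of days. At an unadjusted p under 0.05, 6 of 12 were lower and 0 higher, where 3.57% of all probes were lower, among them HMGCS1, the synthase ahead of the rate-limiting step, at -0.46 (SE 0.16, adjusted p = 0.318), and MVK, mevalonate kinase, at -0.65 (SE 0.24, adjusted p = 0.323). No member lies in the oval. Not every cow shared this: the mean deviation over the list was -0.56, -0.30 and -0.55 for replicates 1, 2 and 4 and 0.26 for replicate 3. In the other groups this value lay between -0.48, on days 40-45, and 0.50, on days 150-160, so the ranges overlapped. Without replicate 4 the median was -0.28 with 0 lower, and with the local median subtracted -0.51 with 5 lower, where 2.57% and 5.69% of all probes were lower. Steroidogenic genes had a median of 0.04 over 18 genes, with HSD17B1 higher and HSD3B1 lower at an unadjusted p under 0.05. Endothelial markers had a median of 0.21 over 18 genes, with 4 higher at an unadjusted p under 0.05, where 8.77% of all probes were higher. They stood 0.48 above cyclic cows and 0.01 above days 150-160. Granulocyte markers, at -0.40 over 12 genes with 3 lower, had medians of -0.91 against cyclic cows and 0.17 against days 40-45. Immediate early genes, at -0.40 over 14 genes with 2 lower, had medians of -1.05 against days 150-160 and 0.24 against cyclic cows. Markers of macrophages and dendritic cells had a median of 0.16 over 13 genes, ribosomal proteins 0.05 over 63 and subunits of oxidative phosphorylation -0.04 over 72.

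**Figure D5:**
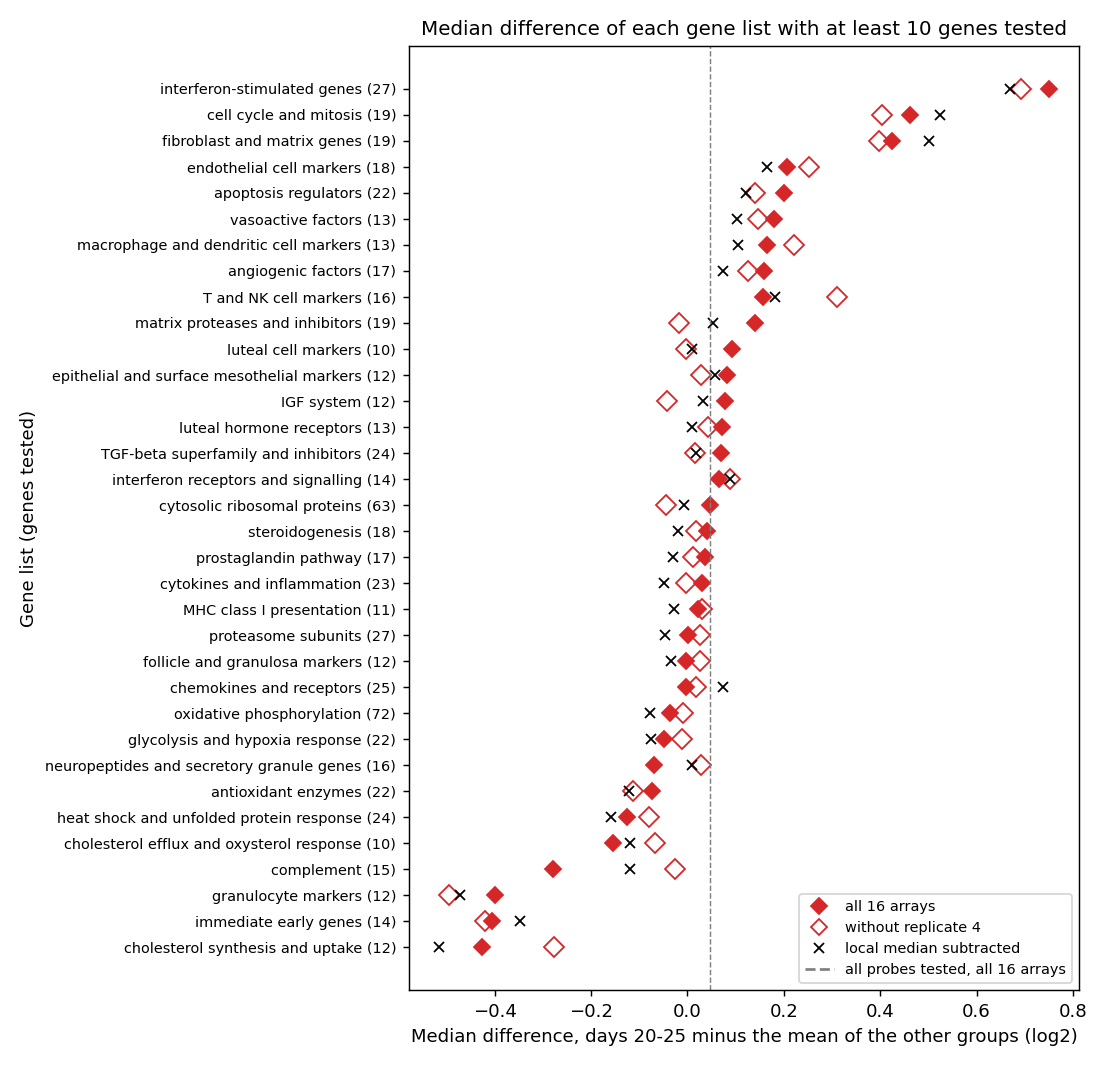
Median difference of days 20-25 from the mean of the other groups (log2, horizontal axis) for each gene list with at least 10 genes tested, with all arrays (filled), without replicate 4 (open) and with the local median on the array subtracted (cross). Interferon-stimulated genes stand highest at 0.75, 0.69 and 0.67, and cholesterol synthesis and uptake lowest with all arrays at -0.43; the dashed line is the median of all probes, 0.05.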

How the data were processed

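Total RNA of 16 corpora lutea was hybridised to 1-colour arrays. Per the file headers, the authors' deposited values are linear intensity per spot after subtraction of background and spatial trend, not scaled between arrays. Scans were read with Agilent Feature Extraction 9.5, per the submitters' processing notes. The authors' deposited value table is log2 of that signal minus a constant per array and served as an alternative. Of 15744 features 536 controls were left out and 36 outlier-flagged spots were set missing.

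Group and slide entered a limma 3.58.1 fit in R 4.3.3 over all 16 arrays, with Benjamini-Hochberg adjustment over 11943 probes, called under 0.05, and two-sided tests. Symbols came from the files and RefSeq (ARS-UCD2.0): 7246 probes have 1 and 7962 none. A list gene is its brightest probe. Named genes were those called against each group, those with 4 non-overlapping arrays (filled to 8 a direction by smallest p), 8 interferon-stimulated and 5 interferon signalling genes by smallest p, and STAR, CYP11A1, HSD3B1, LHCGR, PTGFR and OXT. Further names were chosen after their values were seen. A gene that the rule names is not reported here. Members and lists were chosen with earlier results of these data known. The code was tested on simulated data.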

Additional observations from a re-analysis of the deposited data

Results flagged for a closer look

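Of 128 pairs of a gene and a group of 4 cows, 8 held a cow set apart from the other 3 by more than Dixon's 95% limit, and chance alone sets apart about 1 in 20. Cyclic replicate 1 was such a cow 3 times: SEMA3D at -3.12 against -6.35 to -6.04, ABR4875 at -5.05 against -5.78 to -5.68, and ABR4555 at -8.13 against -9.22 to -9.06. Cyclic replicate 3 was high for EIF2AK2, at -3.80 against -4.26 to -4.23. On days 40-45, replicate 2 was high for IFITM3, at 3.96 against 3.60 to 3.64, and replicate 4 low for USP18, at -2.30 against -1.24 to -1.03. DAPL1 set apart replicate 2 of days 20-25, low at -8.39 against -7.21 to -6.97, and replicate 1 of days 150-160, high at -2.16 against -3.77 to -3.55. Replicate 4 of days 20-25 was not set apart for any of these genes.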

How the results depend on the processing

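Calls against the mean of the other groups numbered 9 with all arrays. Leaving out 1 array at a time gave 2 to 32. The number was 0 within slide 1, 0 within slide 2, 1 with no slide block and replicate 4 of days 20-25 left out, and 238 with array weights, in which that replicate had a weight of 0.253. Of alternatives chosen after the data were seen, array weights without it gave 145, dim values raised to background without it 3, and local medians subtracted without it 1. Calls against each group stayed at 0 when leaving out 1 array at a time and under every other alternative, except that local median subtraction gave 1. Across pairs of same-numbered cows deviations correlated at 0.00 to 0.29. Same-numbered cows also shared a slide and were not set against other pairs, so these values cannot show whether the numbers pair them. With the replicate block the count was 10. The difference of STAR changed sign, to -0.0398 with no slide block and no replicate 4, -0.00827 within slide 1, -0.00255 and -0.0108 with array weights, with and without that replicate, and -0.037 and -0.00112 with local medians subtracted, with and without it. That of IFNGR1, between -0.9375 and 0.03997 when leaving out 1 array at a time, became 0.03997 without replicate 4, also with dim values raised, 0.0432 with no slide block besides, 0.03997 with the oval set missing and 0.0153 with local medians subtracted and no replicate 4. The causes were not tested. With 4 cows a group the number of arrays limits the precision: the median SE of a difference was 0.16.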

Other observations

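In all, 8 genes with a symbol lay below every other array of their slide on both slides, where 0.126% of probes (15) did. GAST, listed in the files under the gastrin name, differed by -0.77 (adjusted p = 0.0568) and was called once local medians were subtracted (-0.81, adjusted p = 0.0372). DHRS9, a retinol and steroid dehydrogenase, differed by -1.77 (adjusted p = 0.0955), and SYCP3, a meiotic chromosome protein, by -0.65 (adjusted p = 0.111). TXK, a tyrosine kinase of T and natural killer cells, was 0.93 higher with all 4 arrays above the other 12 (adjusted p = 0.111). HSD17B1, which makes estradiol from estrone, was 1.47, 1.55 and 1.35 above the groups in turn, but its difference from the mean was 1.46 with all arrays and 0.46 without replicate 4. These genes were chosen after their values were seen.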
